A study of Mus musculus with 18 samples.

Results

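The 8 genes described here lie on mouse chromosome 8, the chromosome of Cacna1a, which is altered in all 3 mutant lines. They are Gadd45gip1, Trmt1, Mri1, Usp38, Rasd2, Comp, Slc25a42 and Lpcat2. They were selected on their deposited log2 levels, which differed between mutants and wild-type littermates in the Ctm or the 11Q line. These 2 comparisons therefore chose the genes. Their differences, and any counts of these genes passing there, are given below as a description and not as a test. The 118Q line was not used in the choice, and there the genes were tested. The 8 genes were read by 15 probe sets with exactly 1 gene symbol, out of 34945 such probe sets, and are 8 of 18193 genes measured and of 940 measured genes on chromosome 8.

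Cerebellum was profiled on 18 Affymetrix arrays, 3 in each of 6 groups of C57BL/6 mice. The mutants were MPI 118Q/118Q knock-in, Sca6 CtmKO/CtmKO and MPI 11Q/11Q knock-in mice, all homozygous, and each line had wild-type littermates of its own. The 118Q and Ctm mutants were 6 weeks old, and the age of the 11Q line is not given in the sources used here. The labels give no age for the wild types of any line. The labels speak of 3 mice in each group but do not tie arrays to mice, so p values measure only the spread between these samples. How each allele was made, from which stem cells and over how many backcrosses, is not given in the sources used here. Values are log2 expression levels. A change is the mutant mean minus the wild-type mean of the same line, with the standard error (SE) of a limma model over all arrays. A gene passed the test at a Benjamini-Hochberg adjusted p below 0.05 over all genes.

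Cacna1a encodes the pore-forming subunit of the Cav2.1 calcium channel, which Purkinje and granule cells use to release transmitter. A gene altered in stem cells is inherited together with the chromosome around it, and breeding to another strain removes distant stretches of that chromosome before near ones. Genes next to an altered locus can therefore differ between mutants and littermates through inherited sequence as well as through the altered product. No genotype was measured around the locus in the data used here, and the part played by inherited sequence in the values below was not tested.

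Array medians lay between 2.38 and 2.55, and arrays correlated with each other between 0.973 and 0.995. Ctm wild-type arrays 2 and 3 lay furthest from the rest over 1 set of genes. Over the 152 genes that were higher in the Ctm knockout, wild-type arrays 1, 2 and 3 had median deviations of -0.51, -1.18 and -1.32 from the average of the 118Q and 11Q wild types, while the other 15 arrays lay between -0.16 and 0.13. These genes were picked for a gap between Ctm knockouts and Ctm wild types, so a gap between these groups is built in. All 8 granule cell markers lay above the array median on every array, as did the 5 Purkinje cell markers with a probe set of their own. In bulk tissue, fewer cells of a type and less RNA per cell cannot be told apart.

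In chromosomal order, the 8 genes lay on both sides of Cacna1a. Mri1 was 2 measured genes before it, Trmt1 3 and Gadd45gip1 7 measured genes after it. Usp38 lay 34, Rasd2 57, Comp 134 and Slc25a42 141 measured genes before Cacna1a, and Lpcat2 69 after it. Their products have no common pathway. Gadd45gip1 encodes a protein of the large mitochondrial ribosomal subunit, also called Crif1, and Trmt1 a methyltransferase that modifies guanosine in tRNA. Mri1 encodes the isomerase of the methionine salvage pathway, Slc25a42 the mitochondrial carrier of coenzyme A, and Lpcat2 an acyltransferase that remodels phosphatidylcholine and makes platelet-activating factor. Rasd2 encodes the small GTPase Rhes, which is known for its high level in striatum, Usp38 a deubiquitinating enzyme, and Comp a matrix protein of the thrombospondin family best known from cartilage.

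Of the 8 genes, 5 had a promoter in the RefSeq table of build GRCm38.p6, from 250 bases before to 50 bases after the start of transcription. Gadd45gip1, Trmt1 and Comp were not among them. The promoters of Mri1, Usp38 and Rasd2 are shown because these genes were lower together in the Ctm knockout, and that of Slc25a42 because this gene was higher in both knock-in groups. Capitals mark the GC box GGGCGG, the CCAAT box CCAAT and the NRF1 palindrome, each searched on both strands. The Mri1 window is chr8:84257275-84257574 on the minus strand, the Usp38 window chr8:81014857-81015156 on the minus strand, the Rasd2 window chr8:75213694-75213993 on the plus strand and the Slc25a42 window chr8:70212232-70212531 on the minus strand.
Mri1: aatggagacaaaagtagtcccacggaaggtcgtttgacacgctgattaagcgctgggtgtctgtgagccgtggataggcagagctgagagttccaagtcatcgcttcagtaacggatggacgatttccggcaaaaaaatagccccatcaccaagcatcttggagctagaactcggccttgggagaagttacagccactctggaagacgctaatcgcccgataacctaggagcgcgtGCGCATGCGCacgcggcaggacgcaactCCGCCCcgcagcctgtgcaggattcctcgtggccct
Usp38: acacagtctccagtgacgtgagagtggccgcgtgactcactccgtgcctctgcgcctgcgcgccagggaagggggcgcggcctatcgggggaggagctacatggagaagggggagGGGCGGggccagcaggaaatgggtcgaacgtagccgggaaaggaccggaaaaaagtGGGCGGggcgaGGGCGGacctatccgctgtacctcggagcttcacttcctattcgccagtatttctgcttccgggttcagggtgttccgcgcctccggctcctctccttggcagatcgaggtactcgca
Rasd2: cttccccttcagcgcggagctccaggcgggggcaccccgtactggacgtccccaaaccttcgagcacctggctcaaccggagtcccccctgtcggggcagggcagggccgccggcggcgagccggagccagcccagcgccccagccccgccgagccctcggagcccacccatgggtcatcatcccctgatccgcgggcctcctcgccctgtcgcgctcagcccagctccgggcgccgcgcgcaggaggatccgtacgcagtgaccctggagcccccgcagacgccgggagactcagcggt
Slc25a42: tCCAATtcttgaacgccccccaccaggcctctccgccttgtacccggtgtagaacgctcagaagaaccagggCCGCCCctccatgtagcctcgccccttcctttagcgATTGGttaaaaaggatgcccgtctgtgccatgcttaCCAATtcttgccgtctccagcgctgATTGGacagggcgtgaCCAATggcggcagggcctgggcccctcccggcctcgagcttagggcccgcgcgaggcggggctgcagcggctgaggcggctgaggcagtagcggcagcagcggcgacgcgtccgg

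All 5 promoters were rich in CpG, with 33 CpG in Rasd2, 27 in Usp38, 26 in Slc25a42, 23 in Mri1 and 15 in Lpcat2, against a median of 7 over 32841 promoters of the same length. The GC box was found 3 times in Usp38, 2 times in Lpcat2, 1 time each in Mri1 and Slc25a42 and 0 times in Rasd2, and in 35.7% of all promoters. Slc25a42 held 5 CCAAT boxes and Lpcat2 held 1, while 37.4% of all promoters held at least 1. Mri1 held the NRF1 palindrome, which occurred in 0.971% of all promoters and which was chosen after the sequence was seen. The TATA box TATAAA, found in 13.6% of all promoters, occurred in Lpcat2 alone, and the E box CACGTG (7.15%) and the ETS core with its flank (3.89%) in 0 of the 5. The 3 genes that were lower together in the Ctm knockout had none of the 3 marked motifs in common.

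Gadd45gip1 had the smallest p of all genes in the Ctm comparison, which chose it, while other genes changed by more. On its brighter probe set (1417619_at) it read 4.61, 4.67 and 4.33 in Ctm knockouts 1, 2 and 3, and 5.94, 5.75 and 6.08 in their wild types. It read 4.86, 4.99 and 4.88 in 11Q knock-ins and 5.97, 5.65 and 5.84 in wild types. Both mutant groups lay wholly below their wild types, and the Ctm knockouts also below the 11Q knock-ins. In the 118Q line the groups overlapped, with 5.47, 5.72 and 5.30 in knock-ins and 5.92, 5.21 and 5.50 in wild types. No array outside the Ctm knockouts and 11Q knock-ins read below 5.21. The change was -1.39 (SE 0.16) in the Ctm line, a level 0.382 times that of wild type, and -0.91 (SE 0.16) in the 11Q line. Against the 6 knock-in-line wild types the Ctm knockouts were still lower, by -1.15 (SE 0.14).

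The other probe set of Gadd45gip1 (1448776_at) ran the opposite way. It read 2.41, 2.72 and 2.94 in Ctm knockouts and 1.98, 2.18 and 1.84 in their wild types. It read 2.61, 2.82 and 2.65 in 11Q knock-ins and 1.91, 2.30 and 2.30 in wild types. In both lines the mutants lay wholly above the wild types, with changes of 0.69 (SE 0.18) and 0.52 (SE 0.18). The platform table lists the same source sequence for both probe sets. The dimmer one lay above the array median on 10 of 18 arrays, the brighter one on all 18. Averaged over both probe sets, the Gadd45gip1 change shrank to -0.35 in the Ctm line and -0.19 in the 11Q line. The probe sequences were not used here, and the reason for the opposite readings was not tested.

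Trmt1 was lower in the same mutants on its brightest probe set (1436494_x_at). It read 4.68, 4.58 and 4.51 in Ctm knockouts against 5.20, 5.35 and 5.24 in wild types, and 4.80, 4.83 and 4.69 in 11Q knock-ins against 5.17, 5.21 and 5.13. Neither pair of groups overlapped, and the changes were -0.67 (SE 0.14) and -0.40 (SE 0.14). The 118Q knock-ins, at 4.87, 5.27 and 4.89, lay among their wild types at 4.91, 4.69 and 5.39. The other probe sets of Trmt1 differed less in the Ctm line. Probe set 1451249_at was at -0.20 (SE 0.14) there and at 0.08 (SE 0.14) in the 11Q line, with overlap in both. Probe set 1437314_a_at was at -0.29 (SE 0.16) with overlap in the Ctm line, and at -0.48 (SE 0.16) in the 11Q line without overlap.

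Mri1, the gene nearest to Cacna1a among the 8, read 3.51, 3.58 and 3.56 in Ctm knockouts (1417146_at). Their wild types read 3.96, 4.33 and 4.72. The 11Q knock-ins read 3.43, 4.03 and 3.99 and their wild types 4.43, 4.70 and 4.37. Mutants were lower without overlap in both lines, by -0.79 (SE 0.18) and -0.68 (SE 0.18). The Ctm wild types were spread widely, and without their arrays 2 and 3 the Ctm change was -0.41. Against the 6 knock-in-line wild types the Ctm change was -0.79 (SE 0.15). In the 118Q line the direction was the other one, with 4.34, 4.61 and 4.55 in knock-ins and 4.38, 4.08 and 4.04 in wild types, and the groups overlapped. The other Mri1 probe set (1426549_at) stayed below the median on all 18 arrays, between 0.43 and 0.97.

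Usp38 and Rasd2 completed the 5 genes that were lower in the Ctm knockout. Usp38 (1428592_s_at) read 3.73, 3.62 and 3.40 in Ctm knockouts and 3.97, 4.26 and 4.41 in wild types, a change of -0.63 (SE 0.15). The Ctm wild types were the highest group of the 6. Against the 6 knock-in-line wild types, the Usp38 change was -0.27 (SE 0.13), and without Ctm wild-type arrays 2 and 3 it was -0.39. In the 11Q line Usp38 read 3.36, 3.79 and 3.77 in knock-ins against 3.88, 3.80 and 4.01, a change of -0.26 (SE 0.15) in which the groups just failed to overlap.

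Rasd2 (1427344_s_at) read 3.80, 4.11 and 3.64 in Ctm knockouts and 4.74, 5.22 and 4.73 in wild types, a change of -1.05 (SE 0.22). Against the 6 knock-in-line wild types it was -0.69 (SE 0.19). Its other probe set (1427343_at), which exceeded the array median on 4 of 18 arrays, was also lower in the Ctm knockout, at -0.56 (SE 0.17) and without overlap. In the 11Q knock-ins Rasd2 spread from 3.81 to 4.79 and overlapped with wild types at 4.91, 4.90 and 4.53. The change there was -0.50 (SE 0.22) and ranged from -0.76 to -0.27 when single arrays of the line were left out. Of 4 striatal markers 3 had a probe set of their own. Drd1 and Drd2 stayed below the median on all 18 arrays. The summed log2 level of the 3 ran from 8.81 to 9.13 in Ctm knockouts and from 9.13 to 9.49 in Ctm wild types, and its part in the Rasd2 value was not tested.

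Comp showed the widest range of the 8 genes and separated the arrays into a low and a high set with nothing between them. On its probe set (1419527_at), 10 arrays read between 1.54 and 2.15, all below their own array median, and 8 arrays read between 3.35 and 4.64. All 11Q knock-ins were in the high set, at 4.33, 4.48 and 4.40, and all 11Q wild types in the low set, at 1.85, 2.15 and 1.69. All 6 arrays of the Ctm line were low, at 1.94, 1.54 and 1.61 in knockouts and 1.58, 1.66 and 1.82 in wild types. The 118Q knock-ins were high, at 3.35, 3.70 and 4.64, but their wild types were divided, with 1.95 on array 1 and 4.06 and 4.19 on arrays 2 and 3. The change in the 11Q line was 2.50 (SE 0.41), or 5.67-fold on the deposited scale, where low values depend on the background step. The Ctm change was 0.01 (SE 0.41). The summed log2 level of 6 meningeal and fibroblast markers ran from 25.9 to 27.7 in 11Q knock-ins and from 25.9 to 28.2 in their wild types, so the 2 groups covered nearly the same range there. In the 118Q line it ran from 26.0 to 26.4 in knock-ins and from 27.5 to 28.4 in wild types. The sum of 6 choroid plexus markers ran from 16.1 to 37.1 in 11Q knock-ins and from 38.3 to 40.4 in wild types, with 0 of 6 past the threshold, and its part in the Comp value was not tested.

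Slc25a42 (1424790_at) was high in the same knock-in groups. It read 4.81, 4.78 and 4.81 in 11Q knock-ins and 4.17, 4.04 and 3.77 in wild types, and 4.60, 4.77 and 4.96 in 118Q knock-ins and 4.38, 4.47 and 3.81 in wild types. The 6 knock-in arrays all lay above the other 12, the highest of which read 4.52. The change was 0.81 (SE 0.15) in the 11Q line and 0.13 (SE 0.15) in the Ctm line, where knockouts read 4.42, 4.52 and 4.33 and wild types 4.26, 4.36 and 4.27. The dimmer probe set (1443637_at) stayed below the median on all 18 arrays.

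Lpcat2 (1434945_at) was lowest in the 11Q knock-ins, at 1.93, 1.87 and 1.88, all below their array medians and below the 15 other arrays, of which the lowest read 2.10. The 11Q wild types read 2.55, 3.36 and 3.44, and the change was -1.22 (SE 0.23). Ctm knockouts at 2.65, 2.94 and 3.00 overlapped with wild types at 3.30, 3.13 and 2.80, and the change was -0.21 (SE 0.23). The other Lpcat2 probe set (1440684_at) stayed below the median on all arrays. Microglia, in which Lpcat2 is expressed, were followed by 6 markers. Their summed log2 level ran from 21.1 to 22.6 in 11Q knock-ins and from 21.4 to 22.3 in wild types, and 0 of 6 passed the test in the 11Q line. Of these markers, Aif1 stayed below the median on every array. For 3 markers of oligodendrocyte precursors the sum ran from 11.5 to 12.19 in 11Q knock-ins and from 11.9 to 12.8 in wild types. The part of these cells in the Lpcat2 value was not tested.

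**Figure D1:**
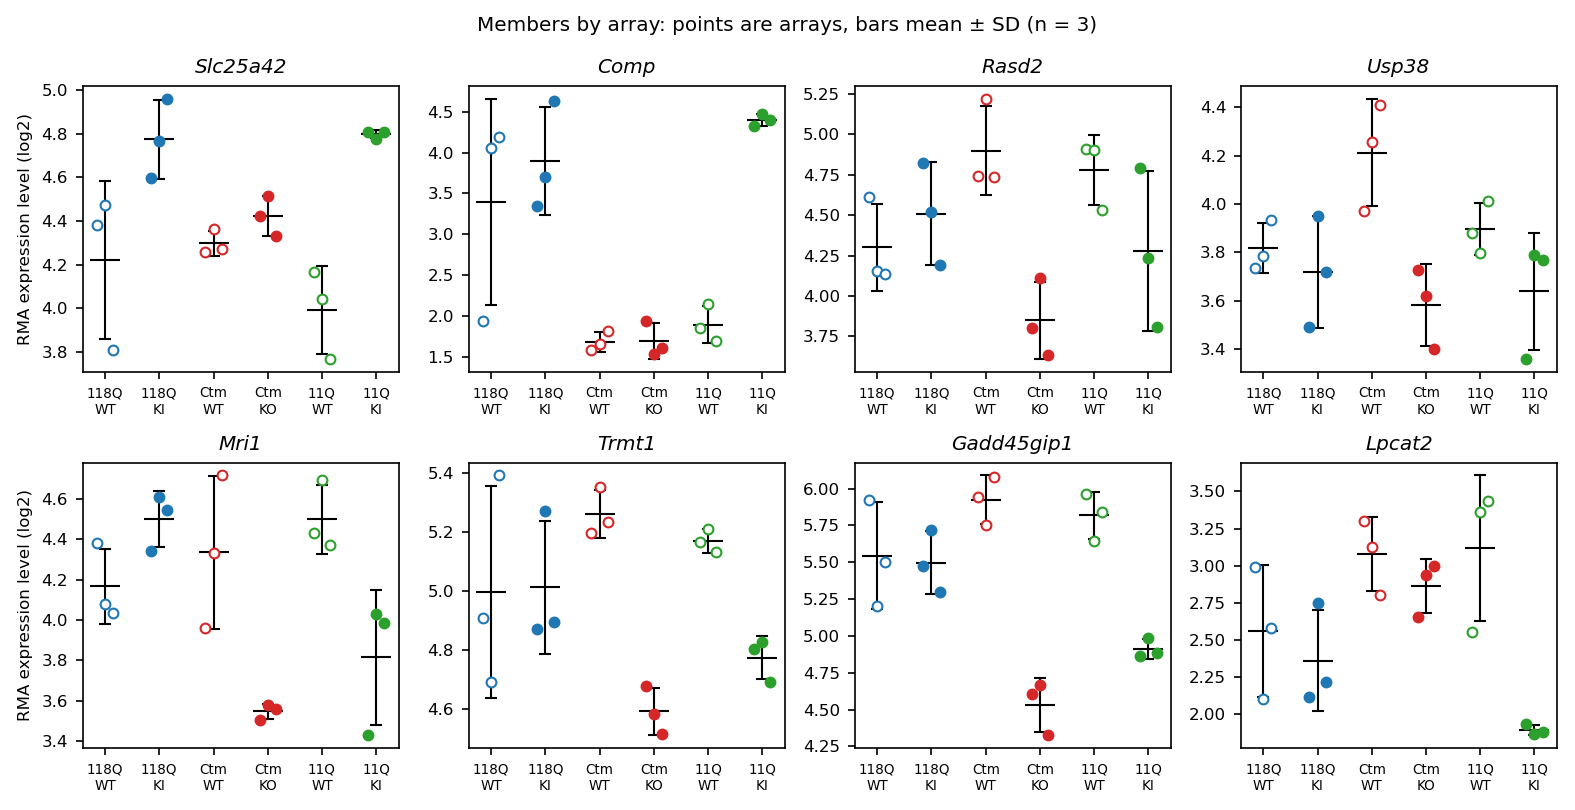
Log2 expression level (y axis) of the brightest probe set of each of the 8 genes in the 6 groups (x axis), with panels in chromosomal order. Open points are wild-type arrays, filled points mutant arrays, and bars the mean ± SD of 3 arrays. The Ctm knockouts and 11Q knock-ins are low together in Gadd45gip1, Trmt1 and Mri1, and Comp is either below 2.15 or above 3.35.

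Ordered by group mean, the Ctm knockouts were lowest in Gadd45gip1, Trmt1, Mri1, Usp38 and Rasd2, and the 11Q knock-ins came next in all 5. For Gadd45gip1 the Ctm knockouts, at 4.53 ± 0.18 (SD, n = 3), were separate from the 11Q knock-ins, at 4.91 ± 0.066, and these from the 118Q knock-ins, at 5.50 ± 0.21. For Trmt1 the Ctm knockouts, at 4.59 ± 0.081, were separate from the 11Q knock-ins, at 4.77 ± 0.073, which overlapped with the 118Q wild types at 5.00 ± 0.36. For Mri1, Usp38 and Rasd2 the Ctm knockouts and 11Q knock-ins overlapped. The order was another in the remaining genes. Comp ran from the Ctm wild types at 1.69 ± 0.12 to the 11Q knock-ins at 4.40 ± 0.075, with overlap between every pair of neighbours in that order. Slc25a42 had 11Q and 118Q knock-ins on top, at 4.80 ± 0.019 and 4.78 ± 0.18, and Lpcat2 had 11Q knock-ins at the bottom, at 1.89 ± 0.035, apart from the 118Q knock-ins at 2.36 ± 0.34.

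In the Ctm line 5 of the 8 genes passed the threshold, all 5 lower, while over all genes 0.0934% fell and 0.929% were called in either direction. The groups did not overlap in these 5 genes, all lower, nor in 15.1% of all genes in that direction and 21.3% in either. Since this comparison chose the genes, nothing is read from these counts. The summed log2 level of 6 meningeal and fibroblast markers ran from 24.6 to 25.2 in Ctm knockouts and from 26.7 to 27.95 in their wild types, with 0 of 6 past the threshold, and its part in these values was not tested. Over all 18193 genes, 17 fell in the Ctm knockout, of which 5 lie on chromosome 8, and these are the same 5 genes. Of the 152 that rose, 5 lie on chromosome 8 and none is among the 8 genes. Without Ctm wild-type arrays 2 and 3 together, where the remaining wild-type array is taken to vary like the other groups, 0 of the 5 passed. Without any single Ctm knockout, or without wild-type array 2 or 3, only Gadd45gip1 passed. With the replicate block 3 passed, with the mean of probe sets 2, and against the 6 knock-in-line wild types 4. In the 11Q line 0 of 18193 genes passed, against 998 at an unadjusted p below 0.05, which is 5.49% of all genes, and 7 of the 8 genes were among the 998. The 11Q groups did not overlap in 7 of the 8 genes, 5 lower and 2 higher, and in 10.3% of all genes. The 11Q comparison also chose the genes, so nothing is read from its counts either. The median change of the 8 genes was -0.65 in the Ctm line and -0.45 in the 11Q line, beside -0.060 and -0.017 over all genes.

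The 118Q comparison, which played no part in the choice, asked whether the 8 genes also differed where Cacna1a carries 118Q. None of the 8 passed limma's test, while 1.54% of all genes did, and 1 of the 8 had an unadjusted p below 0.05, as did 16.1% of all genes. It was Slc25a42, at 0.55 (SE 0.15, 95% interval 0.25 to 0.86, adjusted p = 0.0634), on brightest probe sets the only one of the 8 whose knock-ins did not overlap with wild types, against 18.1% of all genes without overlap. On dimmer probe sets 2 more of the 8 had knock-ins wholly above wild types in the 118Q line. These were Trmt1 on 1451249_at, at 0.39 (SE 0.14, adjusted p = 0.210 over all probe sets), and Rasd2 on 1427343_at, at 0.35 (SE 0.17, adjusted p = 0.345 over all probe sets). Slc25a42 passed without knock-in array 1 (0.64, adjusted p = 0.0295) and without wild-type array 2 (0.68, adjusted p = 0.0406). Against the 6 knock-in-line wild types Slc25a42 also passed (0.67, adjusted p = 0.00497). That control includes the wild types of the other knock-in line, whose values had a part in the choice. This pass is therefore not independent of the choice. With the RNA quality covariate, the 118Q arrays alone or the replicate block Slc25a42 did not pass. Nor did it pass without knock-in array 2 or 3, or without wild-type array 1 or 3. Slc25a42 passed in 5 of 16 alternatives, among them the control with the 6 wild types.

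Gadd45gip1 was at -0.05 in the 118Q line (SE 0.16, 95% interval -0.38 to 0.29, adjusted p = 0.933). Trmt1 was at 0.02 (SE 0.14, interval -0.28 to 0.32, adjusted p = 0.977). The estimate for Mri1 was 0.33 (SE 0.18, interval -0.03 to 0.70, adjusted p = 0.363). Usp38 was at -0.10 (SE 0.15, interval -0.41 to 0.21, adjusted p = 0.807) and Rasd2 at 0.21 (SE 0.22, interval -0.26 to 0.68, adjusted p = 0.709). Lpcat2 was at -0.20 (SE 0.23, interval -0.69 to 0.29, adjusted p = 0.745). Comp was at 0.50 (SE 0.41, interval -0.35 to 1.35, adjusted p = 0.595), and its value rested on wild-type array 1. Without that array the change was -0.23. Against the 6 knock-in-line wild types Comp was at 1.25 (adjusted p = 0.0345). That control includes wild types whose values had a part in the choice, so this value is not independent of the choice. The difference between the lines was not tested, because 2 of them chose the genes. The 118Q knock-ins also had a smaller gap between 3' and 5' control probe sets, which reads RNA quality, at 0.41 to 0.47 against 0.50 to 0.61 in wild types, and with this gap as a covariate 0 of the 8 passed. The summed log2 level of 5 Purkinje cell markers ran from 44.3 to 48.2 in 118Q knock-ins and from 48.7 to 49.4 in wild types, and 3 of the 5 passed. That of 6 microglial markers ran from 24.6 to 27.0 and from 21.9 to 23.9, and 2 of the 6 passed. The part of these cells in the values above was not tested.

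**Figure D2:**
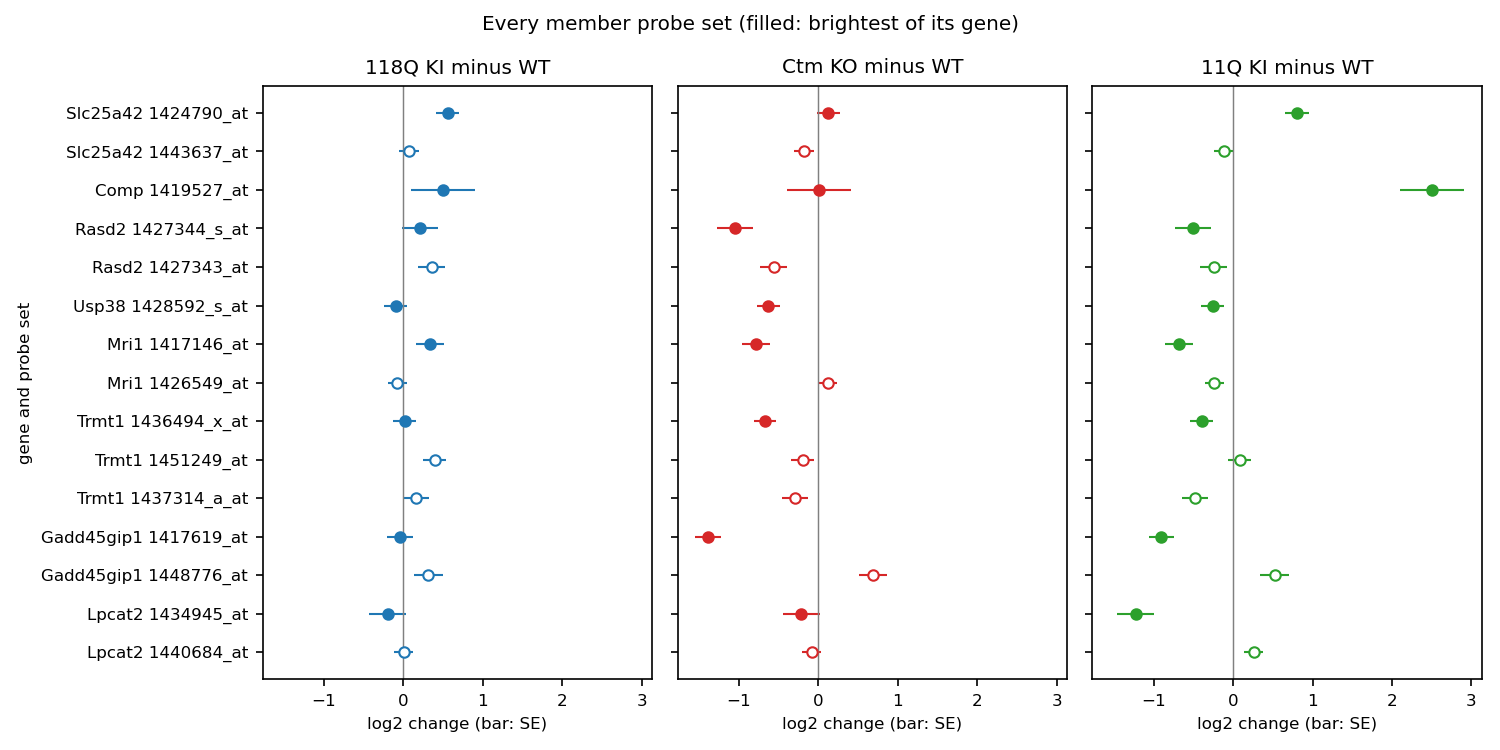
Change in log2 level, mutant minus wild type (x axis), of each of the 15 probe sets (y axis) in the 118Q, Ctm and 11Q lines, with 3 arrays a group. Bars are the SE, and filled points mark the brightest probe set of a gene. The 2 Gadd45gip1 probe sets lie on opposite sides of 0 in the Ctm line, at -1.39 and 0.69, and in the 11Q line, at -0.91 and 0.52.

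Cacna1a, at the centre of the neighbourhood, did not pass in any line on any of its 4 probe sets. On the brightest (1450510_a_at) its knock-ins and wild types averaged 5.64 and 5.93 in the 118Q line. The largest difference among the 4 was that of 1430408_at in the Ctm line, at 0.61 (SE 0.20, adjusted p = 0.185 over all probe sets). In both lines where Gadd45gip1, Trmt1 and Mri1 were lower, Cacna1a on its brightest probe set was at -0.06 in Ctm knockouts (SE 0.15, adjusted p = 0.910) and at -0.09 in 11Q knock-ins (SE 0.15, adjusted p = 0.933).

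The genes immediately beside the 8 were not chosen for their values, so smaller Ctm and 11Q differences than those of the 8 follow from the choice. Of the 16 nearest measured genes on either side, 0 passed in the 118Q, Ctm or 11Q line, and their changes ran from -0.31 to 0.41 in the 118Q line, from -0.43 to 0.02 in the Ctm line and from -0.38 to 0.33 in the 11Q line. Several were further from 0 in the 118Q line than the member beside them, with 0.36 (SE 0.12) for Dand5, -0.31 (SE 0.17) for Calr and 0.37 (SE 0.24) for Nacc1. Gadd45gip1 lies between Dand5, which encodes a secreted antagonist of Nodal, and Calr, the gene of the endoplasmic reticulum chaperone calreticulin. Dand5 and Calr were at -0.25 (SE 0.12) and -0.17 (SE 0.17) in the Ctm line. Trmt1 lies between Nacc1, at -0.03 (SE 0.24), and Lyl1, at -0.16 (SE 0.16), and Mri1 is followed by Ccdc130, at -0.17 (SE 0.20). Comp lies between Upf1 and Crtc1, which were at -0.04 (SE 0.17) and 0.14 (SE 0.17) in the 11Q line. Beside Slc25a42, Tmem161a was at -0.02 (SE 0.10) and Armc6 at 0.15 (SE 0.10) in the 11Q line. Beside Lpcat2, Mmp2 was at -0.25 (SE 0.19) and Capns2, which is dim, at -0.38 (SE 0.12). Beside Usp38, Gab1 was at -0.13 (SE 0.15) in the Ctm line, and beside Rasd2, Mcm5 was at -0.43 (SE 0.19) and the dim Iqcm at -0.02 (SE 0.14).

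Between the outermost of the 8 genes lay 203 other measured genes, and 0 of these passed in the Ctm or the 11Q line. Just outside the choice stood Rnf150, which encodes a RING finger protein, at -0.74 (SE 0.18) in the Ctm line and -0.76 (SE 0.18) in the 11Q line. Usp38, the last gene inside in the Ctm line, was at -0.63 (SE 0.15). Next in the Ctm line came Armc6, at -0.40 (SE 0.10), and the chromatin remodeller gene Chd9, at 0.51 (SE 0.15). By p in the 11Q line, the 3 non-members were Zfp961, at -0.58 (SE 0.12), then Rnf150, then the cytokine gene Il15, at -0.59 (SE 0.15). Rnf150 was at -0.29 in the 118Q line (adjusted p = 0.455). In the 118Q line 1 of the 203 passed, the vesicle transport gene Use1, at 0.54 (SE 0.11, adjusted p = 0.0264), with -0.20 and -0.23 in the Ctm and 11Q lines.

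**Figure D3:**
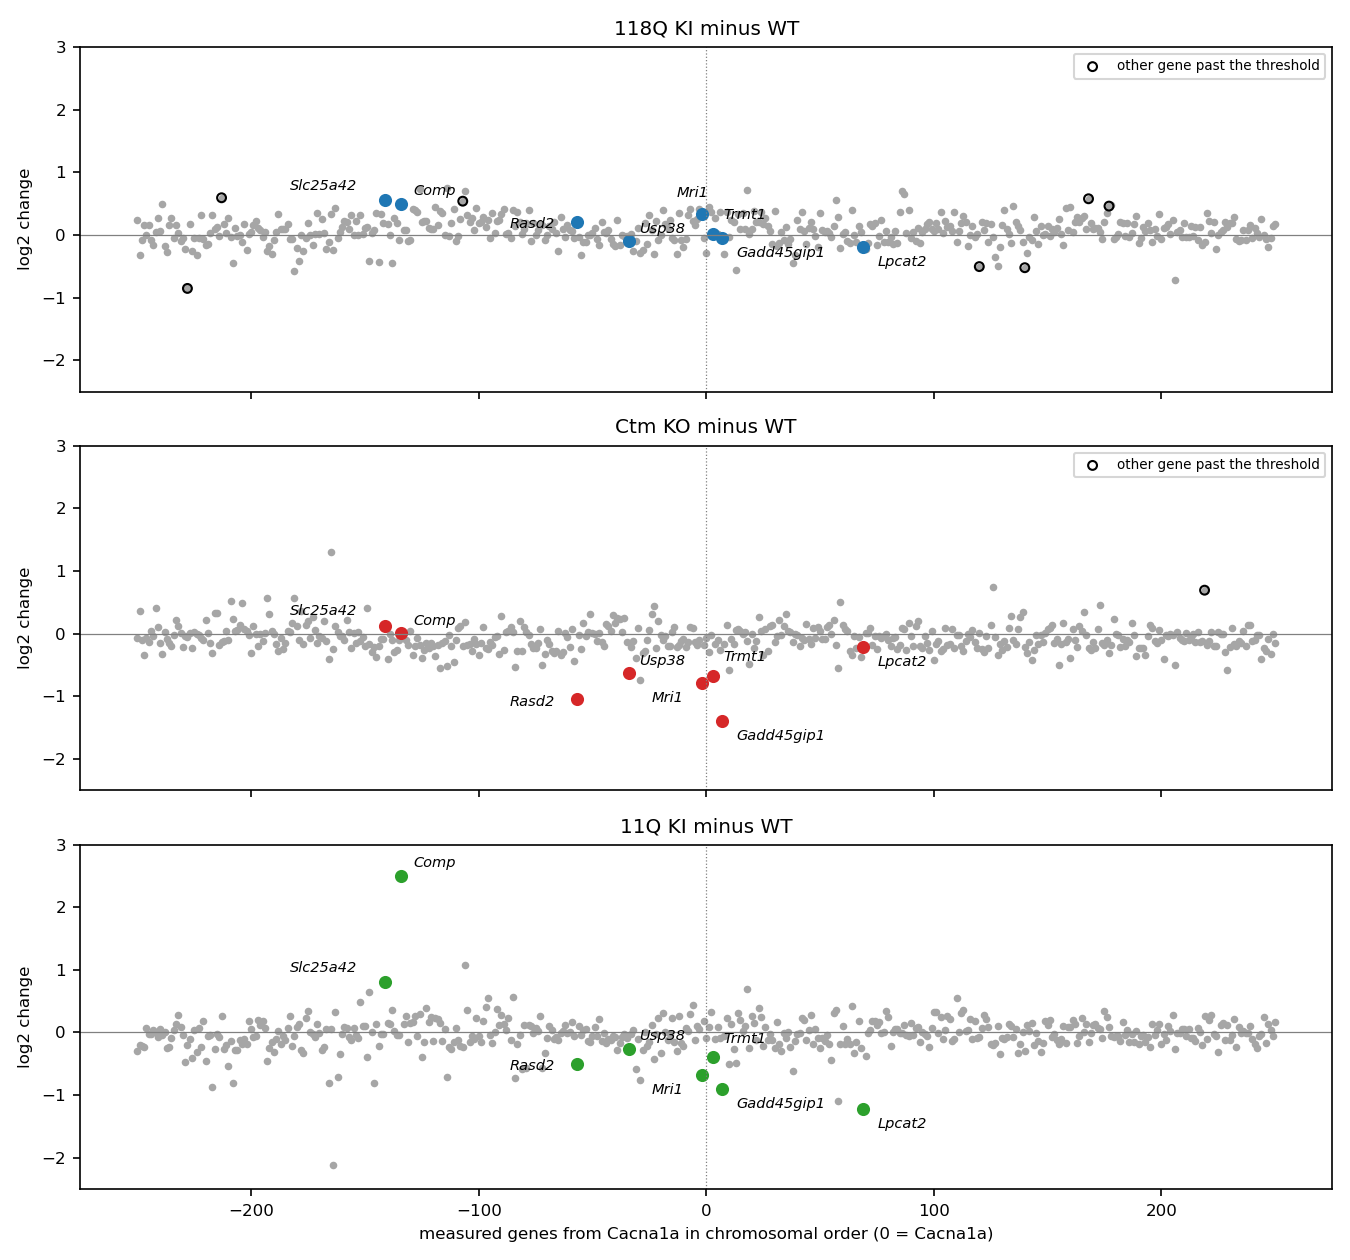
Change in log2 level, mutant minus wild type (y axis), of every measured gene within 250 measured genes of Cacna1a, in chromosomal order (x axis), for each line. Coloured points are the 8 genes, grey points other genes, and black rings other genes with an adjusted p below 0.05. Of the 8 genes, the 5 lower ones of the Ctm line lie within 57 measured genes of Cacna1a, while Comp and Slc25a42, higher in the 11Q line, lie 134 and 141 away.

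Over wider windows, the share of genes with an unadjusted p below 0.05 was counted within each line. With the 8 genes left out, it was 23.5% of 17 genes within 10 measured genes on either side of Cacna1a in the 11Q line, 19.1% of 47 within 25, 14.6% of 96 within 50, 14.4% of 194 within 100 and 12.6% of 492 within 250. Over the remaining 439 genes of chromosome 8 it was 3.19%, and over all genes 5.49%. The 11Q share was thus above that of all genes in every window and below it on the rest of the chromosome. The Ctm shares were 11.8%, 12.8%, 12.5%, 15.5% and 14.2%, with 12.1% on the rest of the chromosome and 12% over all genes. In the 118Q line they were 29.4%, 31.9%, 21.9%, 15.5% and 17.5%, with 13% on the rest and 16.1% over all genes. The 118Q share was thus also above that of all genes in every window except that of 100, and below it on the rest. The windows contain one another, and their genes are not independent, so the shares are a description. Leaving out the 8 genes lowers the near shares of the Ctm and 11Q lines, which chose them, so the lines are not compared. With the 8 genes kept, the shares within 10 measured genes were 35% in the 11Q line, 25% in the Ctm line and 25% in the 118Q line. The choice raises the first 2 of these.

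**Figure D4:**
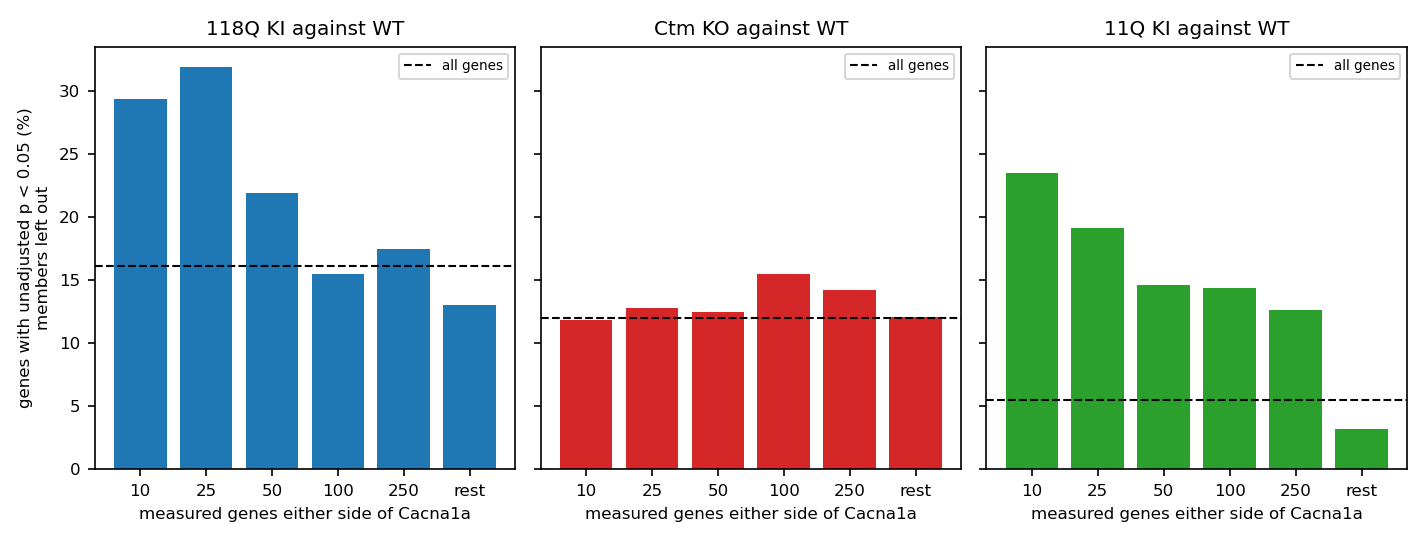
Share of genes with an unadjusted p below 0.05 (y axis, percent) within 10 to 250 measured genes on either side of Cacna1a and on the rest of chromosome 8 (x axis), with the 8 genes left out. Bars are shares within a line, and the dashed line is the share over all genes. In the 11Q line the bars fall from 23.5% to 3.19%, across a dashed line at 5.49%. In the 118Q line they run from 31.9% within 25 measured genes to 13% on the rest, across a dashed line at 16.1%.

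Ranked by p over all genes, chromosome 8 took 8 of the 10 smallest values of the 11Q line, while it holds 5.18% of the genes placed on a chromosome. Of these 8, 4 were Comp, Gadd45gip1, Slc25a42 and Lpcat2. The 11Q comparison had a part in choosing these 4 on this chromosome, so the count of 8 is in part built in. The other 4, named after their values were seen, were Rfxank, a subunit gene of the factor that drives class II histocompatibility genes, at -0.80 (SE 0.16), the zinc finger genes Zfp869 at -0.71 (SE 0.14) and Zfp961 at -0.58 (SE 0.12), and the predicted gene Gm10033 at -2.11 (SE 0.40). Rfxank, Zfp869 and Gm10033 lay at positions -146, -162 and -164, counted in measured genes from Cacna1a, beyond Slc25a42. None of these 4 passed in the 11Q line, with adjusted p from 0.159 to 0.322. In the Ctm line chromosome 8 took 1 of the 10 smallest values, Gadd45gip1, and in the 118Q line 0.

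For each of the 8, the 3 genes whose levels ran most like it over the 18 arrays are given, among them genes of chromosome 8, which holds 5.18% of placed genes. Gadd45gip1, Trmt1 and Mri1 were chosen for differences in the same groups, so their likeness to each other follows from the choice. The correlations below are Pearson's r over 18 arrays, which share the differences between groups, and are a description. Gadd45gip1 ran most like Trmt1 (0.84), Rnf150 (0.82) and Mri1 (0.80), all on chromosome 8. Trmt1 ran like Gadd45gip1 (0.84), Syce2 (0.81) and Rnf150 (0.79), also all on chromosome 8. Comp, whose r rests on the low and high set of arrays, ran like Plvap (0.89), an endothelial gene, Gtpbp3 (0.88), which modifies mitochondrial tRNA, and Ocel1 (0.83), which lie at positions -96, -97 and -106. Rasd2 ran like the lysosomal mannosidase gene Man2b1 (0.81), Gadd45gip1 (0.76) and Zfp703 (0.74), all of chromosome 8. For Mri1 the nearest was Dhps (0.83) of chromosome 8, then Limd1 (0.82) and Fars2 (0.81) of chromosomes 9 and 13. For Lpcat2 it was Rfxank (0.84), then Palmd (0.77) and Cmya5 (0.75) of chromosomes 3 and 13. Slc25a42 ran like Dffa (0.87) of chromosome 4, Eps15l1 (0.84) of chromosome 8 and Rps6kb2 (0.83) of chromosome 19, and Usp38 like Ndp (0.84) and Tmem35a (0.83) of chromosome X and Pcnx2 (0.84) of chromosome 8. Among the 20 most alike genes, chromosome 8 held 8 for Gadd45gip1, 7 for Trmt1 and 6 each for Slc25a42 and Lpcat2. It held 5 each for Rasd2 and Comp, and 4 each for Mri1 and Usp38. Others of the 8 genes were not left out of these counts, such as Trmt1 and Mri1 for Gadd45gip1, and Gadd45gip1 for Rasd2. The counts are therefore in part built in by the choice, and nothing is read from them beside the share of 5.18%.

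Pathway lists were set for 7 of the 8 genes, and none for Usp38. For comparison with the list counts, 16.1%, 12% and 5.49% of all genes had an unadjusted p below 0.05 in the 118Q, Ctm and 11Q lines. The shares of all genes that passed were 1.54%, 0.929% and 0%. Of 78 mitochondrial ribosome genes besides Gadd45gip1, 3 rose and 0 fell in the 118Q line, 29 had an unadjusted p below 0.05, and the median was 0.19 beside 0.040 over all genes. Mrpl14 rose by 0.51 (SE 0.11, adjusted p = 0.0340), Mrps18c by 0.46 (SE 0.11, adjusted p = 0.0455) and Mrpl57 by 0.43 (SE 0.10, adjusted p = 0.0470). In the Ctm line 0 of the 78 rose and 1 fell, Mrpl57, at -0.47 (SE 0.10, adjusted p = 0.0388), 36 had an unadjusted p below 0.05, and the median was -0.22 beside -0.060 over all genes. The 11Q comparison had 0 past the threshold and 2 with an unadjusted p below 0.05, and its median was -0.080.

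The list around Trmt1 holds 22 other genes of tRNA methylation and related tRNA modification. In the 118Q line 1 of them rose, Trmu, which thiolates mitochondrial tRNA and does not methylate it, by 0.56 (SE 0.11, adjusted p = 0.0214), and no other passed. Trdmt1 and Trmt112 were at 0.56 (adjusted p = 0.0748) and 0.22 (adjusted p = 0.261). None of the 22 passed in the Ctm line, where 3 had an unadjusted p below 0.05, or in the 11Q line, where 0 did. Of 13 lysophospholipid acyltransferase genes besides Lpcat2, 1 fell in the 118Q line, Lpgat1, at -0.45 (SE 0.11, adjusted p = 0.0403), and 0 passed in the other lines, where 0 had an unadjusted p below 0.05. Lpcat1 and Lclat1 were at 0.28 (adjusted p = 0.235) and -0.20 (adjusted p = 0.380) in the 118Q line. None of 6 methionine salvage genes besides Mri1 passed in the 118Q, Ctm or 11Q line, with unadjusted p below 0.05 in 1, 3 and 1 of them. Their medians were -0.02, -0.20 and -0.06.

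Of 4 thrombospondin genes besides Comp, 0 passed in any of the 3 lines, with 1, 0 and 0 at an unadjusted p below 0.05 in the 118Q, Ctm and 11Q lines. Thbs3 was at 0.79 in the 118Q line (SE 0.23, adjusted p = 0.0899). The 4 lay between -0.15 and 0.18 in the 11Q line. Of 8 genes of coenzyme A synthesis and transport besides Slc25a42, 0 passed in any of the 3 lines, with 1, 2 and 0 at an unadjusted p below 0.05, and in the 11Q line they lay between -0.33 and -0.004. Rasd1, the close relative of Rasd2, and Mtor and Rheb, with which Rhes is known to act, did not pass in any of the 3 lines, with 1, 0 and 0 at an unadjusted p below 0.05. The Ctm change of Rasd1 was -0.29 (SE 0.21, adjusted p = 0.644), that of Mtor -0.07 (SE 0.10, adjusted p = 0.817) and that of Rheb 0.08 (SE 0.10, adjusted p = 0.794).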

How the data were processed

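The deposited values are log2 expression levels per probe set, made by the authors with RMA per the submitters' processing notes, on cerebellar RNA with an integrity number above 5 per the labels. Low values depend on RMA's background step, and the number of arrays limits the precision.

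The 18 arrays were grouped by their titles. Each of 18193 genes was read by its brightest probe set. All genes were fitted with limma 3.58.1 in R 4.3.3 (1 mean per group, eBayes, two-sided, Benjamini-Hochberg adjustment, threshold 0.05). Chromosomal order came from the RefSeq table of GRCm38.p6, which placed 18145 of these genes, and no gene coordinates were taken from it. The fit was tested on simulated data.

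The genes named are the 8 genes, Cacna1a, their nearest measured neighbours, the 3 most alike genes of each, the next non-members in p, and up to 3 genes per pathway list by p in the 118Q line. Predicted loci were left out of names, except 1 of those named after their values were seen. The 8 genes and all lists were chosen with earlier results of these data known. Alternatives were every probe set, mean of probe sets, no dim genes, trend and robust settings, array weights, renewed quantile normalisation, an RNA quality covariate, a replicate block, the line's arrays alone, other controls, and omission of single arrays. The count of the 8 genes passing in the Ctm line under these settings was added after seeing the data.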

Additional observations from a re-analysis of the deposited data

Results flagged for a closer look

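Mri1 differed between lines in the sign of its estimated change. All 3 of its 118Q knock-in arrays lay above the mean of their wild types, with a change of 0.33, while all 3 Ctm knockouts and all 3 11Q knock-ins lay below theirs, with changes of -0.79 and -0.68. This difference between lines was not tested, since the Ctm and 11Q values had a part in choosing the gene.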

How the results depend on the processing

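Of the 8 genes, 0 passed in the 118Q line. Slc25a42 alone passed without the dimmer 50% of genes (1 gene, adjusted p = 0.0330) and with array weights (1 gene, adjusted p = 0.0101). Against the 6 knock-in-line wild types, which include the 11Q wild types that had a part in the choice, 2 passed, Comp and Slc25a42. With single arrays left out the count was 0 to 1. Changes without a call turned sign in the 118Q line as follows. Gadd45gip1 was at 0.13 with the mean of probe sets, 0.05 without knock-in array 3 and 0.15 without wild-type array 1. Trmt1 was at -0.015 with renewed quantile normalisation, -0.11 without knock-in array 2, -0.03 and -0.14 without wild-type arrays 1 and 2, and -0.071 against the 6 wild types. Usp38 was at 0.016 without knock-in array 1, Rasd2 at -0.030 against the 6 wild types, and Comp at -0.23 and Lpcat2 at 0.020 without wild-type array 1. With single arrays left out, the ranges were -0.21 to 0.15 for Gadd45gip1, -0.14 to 0.21 for Trmt1, -0.21 to 0.016 for Usp38, -0.23 to 0.89 for Comp and -0.43 to 0.020 for Lpcat2. In the Ctm line the 5 genes that passed became 2 with the mean of probe sets, 3 with the replicate block, 1 with the line's 6 arrays alone, 0 without wild-type arrays 2 and 3, and 1 to 5 with single arrays left out. It was 4 with every probe set, without dim genes, with trend and robust settings, with the RNA quality covariate and against the 6 knock-in-line wild types. With array weights or renewed quantile normalisation it stayed at 5. The 5 genes kept their direction under all alternatives run, as did all 8 genes in the 11Q line. These read each gene by its brightest probe set or the mean, never by a dimmer one alone. In the Ctm line dimmer probe sets of Gadd45gip1 and Mri1 ran the other way, and those of Trmt1 and Rasd2 did not. In the 11Q line those of Gadd45gip1, Slc25a42 and Lpcat2 ran the other way, and those of Mri1 and Rasd2 did not. For Trmt1 they were divided there. Over all genes the 118Q count of 280 became 567 without dim genes, 424 with trend and robust settings, 1740 with array weights, 37 with the RNA quality covariate, 70 with the replicate block, 0 with the line's arrays alone, 1579 against the 6 wild types and 2 to 941 with single arrays left out. The Ctm count of 169 became 320 with every probe set, 307 without dim genes, 627 with array weights, 1 with the line's arrays alone, 1769 against the 6 wild types, 4 without wild-type arrays 2 and 3, and 1 to 447 with single arrays left out. The 11Q count of 0 became 1 with array weights, the replicate block or the line's arrays alone, each time Comp, and 0 to 1 with single arrays left out. The replicate numbers share only a number: same-numbered deviations correlated between -0.20 and 0.23, and 2 of 9 mutant arrays correlated best with their own number. The causes of these shifts were not tested.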
